A study of Mus musculus with 6 samples.

Results

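P19 cells on Day 10, labelled as early glial cells, were set against P19 cells on Day 0, labelled as undifferentiated, and the genes whose level was gained or lost over the whole period were described. The members were the 2 arrays of Day 10 and the 2 arrays of Day 0, that is 4 of the 6 arrays of the series. The other 2 arrays were of Day 7, labelled as neuronal cells, and their values are given beside the comparison to show when a change was already present. P19 is a single mouse embryonal carcinoma line, so that all days shared its genotype. The Day 10 and Day 7 cells had received 1 µM retinoic acid (RA) during 4 days of aggregation, and the Day 0 cells were untreated. The cells were maintained and treated with RA in α-MEM with serum, and the culture after the 4 days of RA is not described in the sources used here. The duplicates are called biological by the submitters, but nothing says whether they came from separate inductions.

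P19 cells resemble the cells of the early embryo and keep a network of factors, with Pou5f1 (Oct4) and Nanog at its centre, that holds them undifferentiated. When they are aggregated with RA, nuclear receptors of RA switch on the Hox genes and other targets, the cells leave the cycle, and neurons appear first. Dividing flat cells and glia follow, because neural progenitors make neurons before they make astrocytes. Gfap, an intermediate filament protein, is the usual mark of astrocytes in such cultures.

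Exon arrays measure each exon with its own group of probes, a probeset. The level of a gene on an array was the median of log2(intensity + 16) over its probesets, less the median gene of that array. A level of 0 is therefore the median gene, and an intensity of zero would lie at -3.20 and -3.57 on the Day 10 arrays, against -3.27 and -3.42 on the Day 0 arrays. Of 16263 genes, the 11384 with a mean level over the 6 arrays of at least -1.13 (the 30th percentile) were tested with limma. A gene is said here to have risen or fallen when its Benjamini-Hochberg adjusted p over these genes was under 0.05 and its change was at least 2-fold.

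By this measure 827 genes rose and 1163 fell on Day 10 relative to Day 0, which is 7.26% and 10.2% of the genes tested. At an unadjusted p under 0.05 there were 1532 higher and 2750 lower genes. Both Day 10 arrays lay above both Day 0 arrays in 21.3% of the genes and below them in 38.7%, so such separation alone is common. Most genes moved little, since 53.8% changed by less than 0.5 (log2) and the 5th and 95th percentiles of the change were -1.31 and 1.30. The median change over all tested genes was -0.16, so that changes are to be read against this shift. Quantile normalization took the shift to 0.00 and turned the balance, with 1028 genes higher and 720 lower, that is 58.8% of the called genes higher in place of 41.6%. All of the 720 were also lower without it, and all of the 827 were also higher with it.

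Gains were larger than losses in size. Changes of 4-fold or more were found in 233 genes that rose and in 92 that fell, and changes of 16-fold or more in 33 and 4 genes. Of the 233 genes, 136 (58.4%) had a Day 0 mean below the level of the filter (-1.13), in the range where the signal is close to background. Of the 92 genes, 12 (13%) had a Day 10 mean below it. The filter took the mean over all 6 arrays, 4 of them from RA-treated cells, so a gene detected only on Day 0 needed a higher level to be tested. The medians of the 233 genes were 1.72 on Day 10 and -1.41 on Day 0, with 1.64 on Day 7, and the medians of the 92 genes were 0.14 on Day 10 and 2.39 on Day 0, with 0.16 on Day 7. The Day 7 arrays were compared with the same Day 0 arrays, so both comparisons share them. By its own test Day 7 had 933 genes higher (8.2%) and 986 lower (8.66%) than Day 0. Between Day 10 and Day 7 the numbers were much smaller, with 119 genes higher (1.05%) and 49 lower (0.43%), or 1.48% in either direction.

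**Figure D1:**
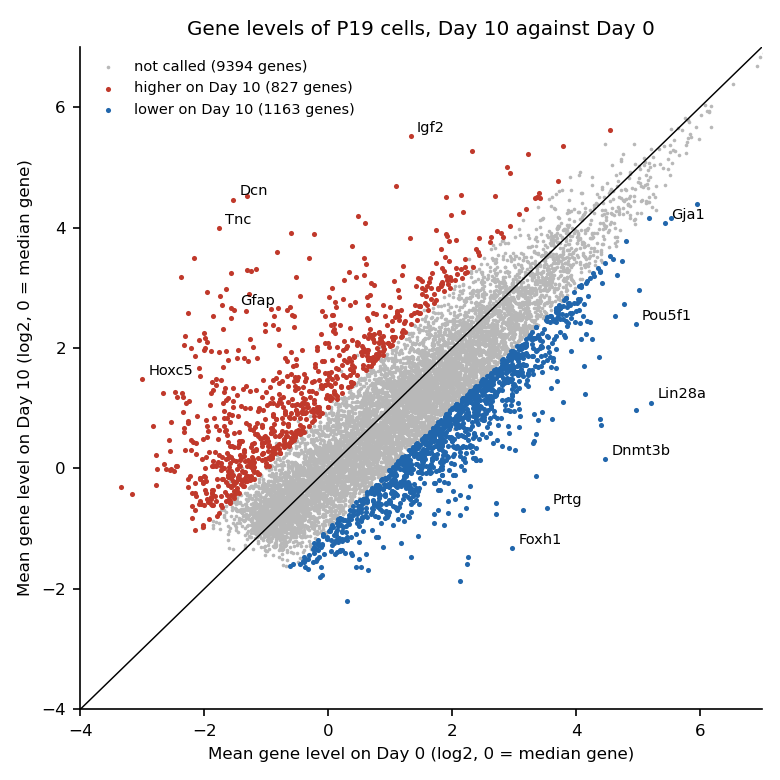
Mean gene level on Day 10 (vertical axis, log2) against the mean on Day 0 (horizontal axis, log2), each over 2 arrays, for the 11384 genes tested. Red points are the 827 genes that rose, blue points the 1163 that fell and grey points the rest, and the line marks equal levels. Many red points reach far above the line at Day 0 levels below -1, while blue points stay nearer to it.

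The duplicates of Day 10 stood farthest apart. Across genes the levels of the pair correlated at 0.930 (0.951 for the pair of Day 0 and 0.973 for that of Day 7), and 641 genes differed by more than 2-fold within the pair (474 for Day 0 and 105 for Day 7). Genes are not independent replicates, and these values describe the arrays only. Day 10 replicate 2 held more signal of undifferentiated cells, with a summed intensity of the 6 fixed markers (Pou5f1, Nanog, Utf1, Zfp42, Lin28a and Tdgf1) of 1152 and 6121 on the Day 10 arrays, against 15360 and 17290 on the Day 0 arrays. The range was 722 to 1799 on Day 7. The 9 neuronal markers summed to 6902 and 4850 on the Day 10 arrays, against 2868 and 2389 on the Day 0 arrays. In RNA from a whole culture, fewer cells of a type and less RNA per cell cannot be told apart.

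The 4 largest rises were in genes of secreted or matrix proteins and of a matrix receptor. Decorin (Dcn), a small proteoglycan that binds collagen, stood at 4.35 and 4.58 on the Day 10 arrays, against -1.89 and -1.17 on the Day 0 arrays. The change was 6.0 ± 0.31 (SE, log2), or 63.8-fold, with an adjusted p of 6.2e-06. It was the largest among the genes ranked, which had at least 3 probesets. Dcn was at 1.80 and 2.34 on Day 7, below both Day 10 arrays. Igfbp5, which binds insulin-like growth factors, stood at 4.54 and 4.51 on the Day 10 arrays, against -1.39 and -1.23 on the Day 0 arrays (56.8-fold, adjusted p = 2.6e-06). Tnc encodes tenascin C, a matrix protein of radial glia and of embryonic connective tissue. It had levels of 3.75 and 4.22 on the Day 10 arrays, against -1.74 and -1.78 on the Day 0 arrays (53.8-fold, adjusted p = 2.6e-06). Ddr2, a receptor tyrosine kinase that is activated by collagen, had 3.33 and 3.64 on the Day 10 arrays, against -1.98 and -2.36 on the Day 0 arrays (50.4-fold, adjusted p = 2.6e-06). On Day 7 Igfbp5 was at 3.54 and 4.07, Tnc at 3.83 and 4.18, and Ddr2 at 2.15 and 2.26. For each of these 4 genes the gap between the days was several times the gap between duplicates. They were picked as the largest called rises, so this gap describes them and is no separate support.

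The other 11 of the 15 largest rises had changes between 4.48 and 5.55. They were Hoxa5, Hoxb9 and Hoxc5, Prrx1 (a homeobox factor of mesenchyme), Tfap2b (an AP-2 factor of the neural crest), the noncoding RNA H19, Sparcl1 (an adhesion-modulating protein secreted by astrocytes), Plk2 (a polo-like kinase), P2rx3 (an ATP-gated channel of sensory neurons), Col3a1 and Tm4sf1 (a membrane protein). H19 differed most between duplicates, with levels of 2.13 and 4.36 on the Day 10 arrays, against -1.84 and -1.31 on the Day 0 arrays. Even so the days did not overlap, and the change was 4.82 ± 0.71 (SE, log2; adjusted p = 0.0013). H19 split in the same way on Day 7, with 2.29 and 4.24.

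**Figure D2:**
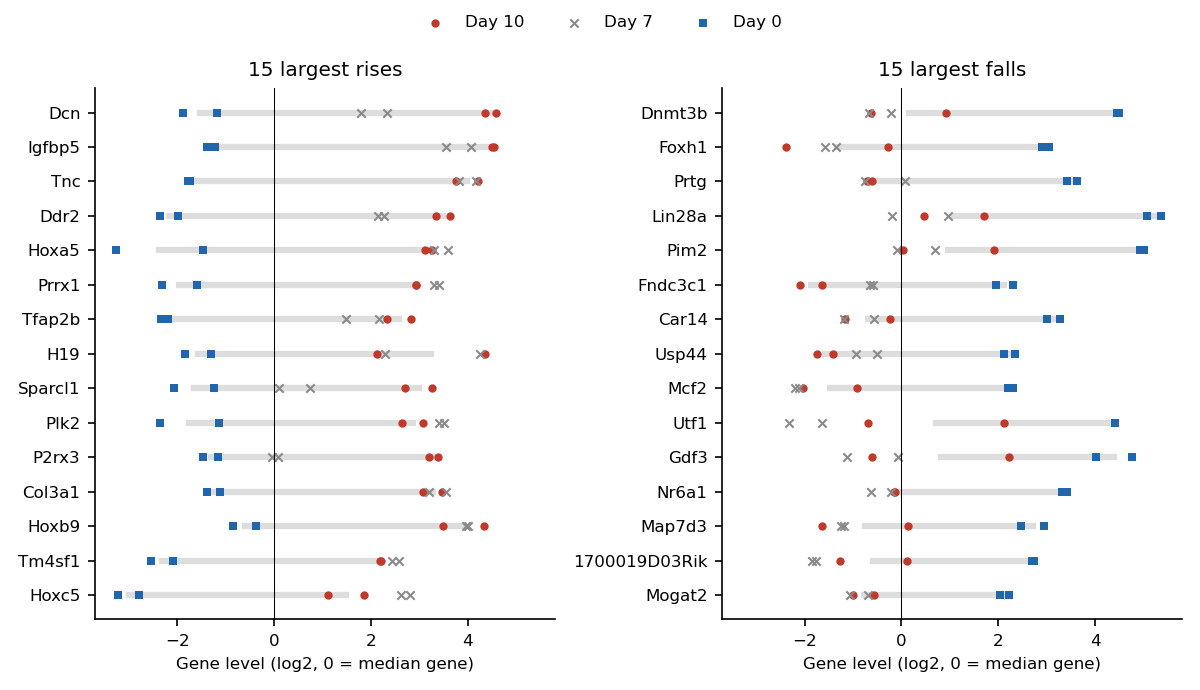
Level of the 15 genes with the largest rises (left) and the 15 with the largest falls (right) on each array (horizontal axis, log2, 0 is the median gene). Red circles are the 2 Day 10 arrays, grey crosses the 2 Day 7 arrays and blue squares the 2 Day 0 arrays, and the bar joins the means of Day 10 and Day 0. No Day 10 array reaches a Day 0 array in any of these genes, which were picked as the largest called changes, and the Day 10 duplicates lie farthest apart for Utf1 and Gdf3.

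Of the 15 largest falls 5 (Dnmt3b, Lin28a, Utf1, Gdf3 and Nr6a1) belong to the list of pluripotency genes, which was drawn up with earlier results of these data known. Dnmt3b, a de novo DNA methyltransferase of early embryonic cells, stood at -0.62 and 0.93 on the Day 10 arrays, against 4.50 and 4.45 on the Day 0 arrays. It fell by 4.32 on the log2 scale (SE 0.43, adjusted p = 0.00013). Foxh1, the DNA-binding partner of Smad proteins in Nodal signalling, had -2.38 and -0.28 on the Day 10 arrays, against 2.89 and 3.04 on the Day 0 arrays (change -4.30, adjusted p = 0.00045). Prtg (protogenin), a membrane receptor of the immunoglobulin family, had -0.61 and -0.71 on the Day 10 arrays, against 3.43 and 3.62 on the Day 0 arrays (change -4.18, adjusted p = 1.9e-05). The RNA-binding protein Lin28a, which blocks the maturation of let-7, had 0.47 and 1.71 on the Day 10 arrays, against 5.36 and 5.06 on the Day 0 arrays (change -4.12, adjusted p = 0.00024). In Prtg the duplicates agreed closely, whereas in Dnmt3b, Foxh1 and Lin28a Day 10 replicate 2 lay above replicate 1 by more than 1 log2 unit.

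Among the 15 largest falls were also the protein kinase Pim2 (-4.0), Fndc3c1 (-3.99), the carbonic anhydrase Car14 (-3.84), the deubiquitinase Usp44 (-3.82) and Mcf2 (-3.73). Utf1, Gdf3, Nr6a1, Map7d3, 1700019D03Rik and Mogat2 completed them, with changes between -3.69 and -2.91. Nr6a1 is the germ cell nuclear factor, which in the mouse embryo represses Pou5f1. It had -0.15 and -0.12 on the Day 10 arrays, against 3.41 and 3.31 on the Day 0 arrays (change -3.50, adjusted p = 1.9e-05), so the loss was the same in both duplicates.

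Of 24 tested genes of the pluripotency list, 10 fell and 1 rose, with a median change of -0.96 against -0.16 for all tested genes. On Day 7 the median was -1.86 with 14 genes lower than on Day 0 and none higher, and 2 genes were higher on Day 10 than on Day 7. One of them was Tdgf1 (Cripto), a coreceptor of Nodal, with 1.45 and 2.86 on the Day 10 arrays, against 1.78 and 1.66 on the Day 0 arrays. The days overlapped (change 0.43, adjusted p = 0.46), and on Day 7 Tdgf1 was at -0.49 and -0.30, lower than on Day 10 by 2.55 (adjusted p = 0.015). Pou5f1, the central factor, stood at 1.19 and 3.61 on the Day 10 arrays, against 4.80 and 5.12 on the Day 0 arrays (change -2.56 ± 0.69, SE; adjusted p = 0.022). Its call was lost when Day 10 replicate 1 (change -1.36, adjusted p = 0.11) or either Day 0 array was left out (-2.72, adjusted p = 0.062, and -2.40, adjusted p = 0.098), and with a trended, robust fit (adjusted p = 0.055). Utf1, a chromatin-bound factor of embryonic stem cells, had -0.70 and 2.12 on the Day 10 arrays, against 4.41 on both Day 0 arrays. Its change was -3.69 (adjusted p = 0.0044), and -2.29 without Day 10 replicate 1. Gdf3, a ligand of the TGF-beta family, showed the same spread, with -0.60 and 2.23 on the Day 10 arrays, against 4.77 and 4.01 on the Day 0 arrays (change -3.57, adjusted p = 0.0068). Without Day 10 replicate 1 its change was -2.16. In all 3 genes both Day 10 arrays were below both Day 0 arrays, and replicate 1 was lower by more than 2 log2 units than replicate 2. The summed intensity of the undifferentiated markers split the Day 10 arrays in the same direction. For Pou5f1 and Utf1 this is built in, because both are among the summed markers. The part of that signal in the size of these losses was not tested.

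Nanog did not pass the test, with 0.22 and 2.38 on the Day 10 arrays, against 2.45 and 3.06 on the Day 0 arrays (change -1.46 ± 0.62, SE; adjusted p = 0.12). Sox2, which pluripotent cells and neural progenitors both use, had 2.73 and 3.47 on the Day 10 arrays, against 3.04 and 3.65 on the Day 0 arrays, so the days overlapped (change -0.24, adjusted p = 0.62). Otx2, Sall4, Mycn and Phc1 fell by between 1.74 and 2.91 on the log2 scale. The single gene of the list that rose was Klf4, a Krüppel-like factor that differentiated cells also express, with 0.66 and 1.19 on the Day 10 arrays, against -0.29 and -0.54 on the Day 0 arrays (2.53-fold, adjusted p = 0.0069). Zfp42 (Rex1) was too low to be tested, with levels between -3.05 and -2.04 on the Day 10 and Day 0 arrays. Pou5f1 and Sox2 proteins bind a composite element together in the Nanog promoter, and it is shown here as a known site. Whether it bears on the split of Nanog between the Day 10 duplicates was not tested. In the RefSeq promoters (GRCm38.p6, a window around each start) the letters TTTGCAT and ACAATG with 1 base between them, searched on both strands, occur in 0.00609% of 32851 promoters and in 1 of the 27 genes of the list that have one. The 2 matching promoters were both of Nanog, the only gene matched among 27025, so the search does not bear on other genes. The matched letters are in capitals in the following stretch of chr6:122707406-122707435 on the plus strand.
Nanog: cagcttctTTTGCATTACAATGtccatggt

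**Figure D3:**
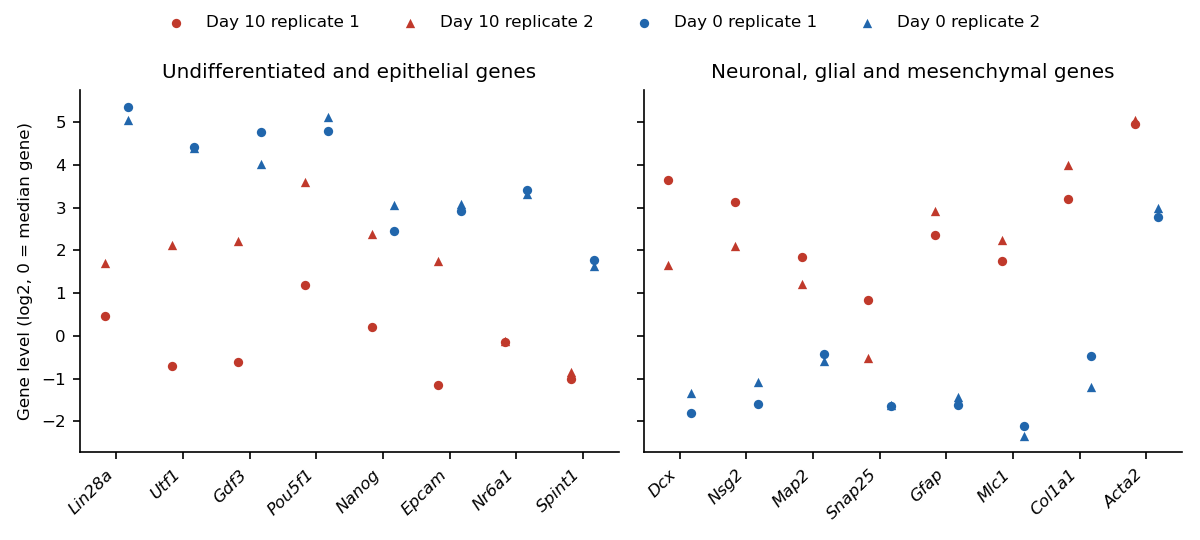
Gene level (vertical axis, log2, 0 is the median gene) of 16 genes on the arrays of Day 10 (red) and Day 0 (blue), with circles for replicate 1 and triangles for replicate 2. Utf1, Gdf3, Pou5f1, Nanog and Epcam lie more than 2 log2 units apart between the Day 10 duplicates, while Nr6a1 and Spint1 coincide, and Dcx is lower in Day 10 replicate 2.

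Epithelial genes are part of the undifferentiated state of P19 cells, which grow as tightly attached colonies. Of 12 tested members of the list, 5 fell and none rose (median change -0.84). Spint1, an inhibitor of membrane serine proteases, had -1.0 and -0.83 on the Day 10 arrays, against 1.77 and 1.65 on the Day 0 arrays (change -2.63, adjusted p = 7.5e-05). E-cadherin (Cdh1), which joins epithelial cells, had -0.81 and 0.32 on the Day 10 arrays, against 1.73 and 1.67 on the Day 0 arrays (change -1.95, adjusted p = 0.0033). In both genes the days were apart by more than the duplicates. Epcam, an epithelial adhesion protein, fell as well (-2.70, adjusted p = 0.018), but the value depended on the Day 10 array, with -1.25 without replicate 1 and -4.15 without replicate 2. Its adjusted p rose to 0.058 and 0.078 when Day 0 replicate 1 or 2 was left out. Crb3, a polarity protein, fell by 1.43 on the log2 scale (adjusted p = 0.017). It did not pass without Day 10 replicate 2 (adjusted p = 0.065) or without Day 0 replicate 1 (-0.95, adjusted p = 0.10). Spint2, a relative of Spint1, was the fifth (-1.16, adjusted p = 0.011). The keratins Krt8 and Krt18 of simple epithelium did not pass (-0.89 and -0.68).

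Hox genes, which give cells their position along the body axis and are classical targets of RA, had the largest median change by the main measure. Of 28 tested Hox genes 19 rose and none fell, and the median change was 2.0. The size and rank depended on the processing. With median polish the median was 1.15, below 1.33 for the extracellular matrix and 1.24 for cell cycle inhibitors and D cyclins. Without the filter the Hox median was 1.35. Hoxa5 had 3.11 and 3.25 on the Day 10 arrays, against -3.27 and -1.47 on the Day 0 arrays (46.8-fold, adjusted p = 4.4e-05). On Day 0 replicate 1 Hoxa5 lay at the level of zero intensity (-3.27), so the offset bears on the size of its change. Hoxb9 had 4.33 and 3.49 on the Day 10 arrays, against -0.85 and -0.37 on the Day 0 arrays (22.9-fold, adjusted p = 1.8e-05). Hoxb2, a gene of the hindbrain, had 1.95 and 1.78 on the Day 10 arrays, against -2.20 and -2.10 on the Day 0 arrays (16.2-fold, adjusted p = 8.3e-06). For these genes the gap between the days was several times the spread of the duplicates.

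The genes that rose were of the A, B and C clusters (Hoxa2 to Hoxa7, Hoxb2 to Hoxb9 with Hoxb13, and Hoxc4, Hoxc5, Hoxc6 and Hoxc8), and none of the 6 tested genes of the D cluster passed. Hoxb13 lost its call with the mean of the probesets (0.90) and with an offset of 50 (0.82). The D cluster was not tested against the other clusters. Hoxd3 came nearest, at 0.08 and 0.37 on the Day 10 arrays, against -0.87 and -0.95 on the Day 0 arrays (change 1.14, adjusted p = 0.051). The early gene Hoxb1 had -1.6 and -1.11 on the Day 10 arrays, against -0.82 and -0.79 on the Day 0 arrays (change -0.55, adjusted p = 0.15). On Day 7 the median of the list was 2.33 with 18 genes higher than on Day 0.

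Other genes that respond to RA gave a mixed picture. Of 23 tested, 11 rose and 2 fell (median change 0.97). Nr2f1 (COUP-TFI), an orphan nuclear receptor, had 1.55 and 2.55 on the Day 10 arrays, against -2.62 and -2.05 on the Day 0 arrays (20.8-fold, adjusted p = 3.5e-05). The Hox cofactor Meis1 had 3.41 and 3.57 on the Day 10 arrays, against -0.31 on both Day 0 arrays (14-fold, adjusted p = 1e-05). The zinc finger factor Tshz1 rose 8.75-fold (adjusted p = 2.5e-05). These transcription factors were gained in both duplicates. The cytoplasmic RA-binding protein Crabp2 fell, with 1.09 and 0.77 on the Day 10 arrays, against 3.52 and 3.37 on the Day 0 arrays (change -2.51, adjusted p = 0.00017), and the receptor Rarg fell by 1.82 on the log2 scale (adjusted p = 0.0011). Crabp1, the other binding protein, rose (change 1.71), and so did Stra6 (1.87), the membrane receptor for retinol carried in plasma, and Dhrs3 (1.85), which reduces retinal to retinol.

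The promoters of 2 genes of this list hold the letters of a direct repeat, the kind of element that RA receptors bind. Rarb, an RA receptor that is itself induced by RA, had 0.31 and 0.22 on the Day 10 arrays, against -0.65 and -1.13 on the Day 0 arrays (2.23-fold, adjusted p = 0.011), but it did not pass without Day 0 replicate 2 (0.91, adjusted p = 0.07). It had been higher on Day 7 (1.71 and 1.44), and the difference of Day 10 from Day 7 was -1.31 (adjusted p = 0.043). Cyp26a1, which breaks RA down, had -2.10 and 0.17 on the Day 10 arrays, against -0.61 and 0.16 on the Day 0 arrays (change -0.74, adjusted p = 0.39), and the days overlapped. Both stretches are printed to show the repeat that the pair share. The letters GTTCA repeated after 6 bases, searched on both strands, occur in 0.0761% of the 32851 promoters and in 2 of the 20 genes of this list that have one. The match is in capitals, on the gene's own strand for Rarb (chr14:16575506-16575535, minus strand) and on the opposite strand for Cyp26a1 (chr19:37697769-37697798, plus strand), each printed along the strand of its gene.
Rarb: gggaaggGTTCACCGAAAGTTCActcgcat
Cyp26a1: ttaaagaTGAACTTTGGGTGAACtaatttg

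Neuronal genes were still raised on Day 10. Of 37 tested genes of the neuronal cytoskeleton and axon, 17 rose and 1 fell (median change 0.73), and of 38 genes of synapses and secretion, 18 rose and 1 fell (median 0.98). Doublecortin (Dcx), a microtubule protein of young neurons, had 3.65 and 1.67 on the Day 10 arrays, against -1.80 and -1.34 on the Day 0 arrays (18.7-fold, adjusted p = 0.00043). Dcc, the receptor of the guidance cue netrin, rose 10.4-fold (adjusted p = 3.5e-05), and the axonal adhesion protein Cntn1 rose 8.0-fold (adjusted p = 0.00041). Robo2, a receptor that guides axons, had 2.60 and 2.38 on the Day 10 arrays, against -1.67 and -1.48 on the Day 0 arrays (16.7-fold, adjusted p = 8.3e-06). The glutamate transporter of synaptic vesicles Slc17a6 had 1.13 and 0.38 on the Day 10 arrays, against -1.98 and -2.54 on the Day 0 arrays (8.08-fold, adjusted p = 0.00018). The endosomal protein Nsg2 was also strongly higher (15.4-fold, adjusted p = 9.2e-05), and the AMPA receptor subunit Gria2 (8.24-fold, adjusted p = 0.00037) and the vesicle protein Rab3c (8.15-fold, adjusted p = 6.7e-05) rose by similar amounts. Rab3c lay at the level of zero intensity on both Day 0 arrays (-3.27 and -3.42), so the offset bears on the size of its change. In Dcx and Slc17a6, Day 10 replicate 1 was the higher duplicate, and the days did not overlap in any of these genes. The microtubule protein Map2 had 1.84 and 1.21 on the Day 10 arrays, against -0.41 and -0.58 on the Day 0 arrays (4.06-fold, adjusted p = 0.00089), and it was lower than on Day 7 by 1.46 (adjusted p = 0.037). Snap25, a protein of vesicle fusion, had 0.85 and -0.52 on the Day 10 arrays, against -1.63 and -1.61 on the Day 0 arrays (change 1.78, adjusted p = 0.0086), and 1.10 without Day 10 replicate 1.

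Several common neuronal markers did not pass. Tubb3, the neuronal beta-tubulin, had 3.93 and 3.37 on the Day 10 arrays, against 3.02 and 2.23 on the Day 0 arrays (change 1.02, adjusted p = 0.051). For the neurofilament genes Nefl, Nefm and Nefh the changes were -0.89, -0.85 and -0.91, none of them called. Stmn2 overlapped between the days (change 0.36, adjusted p = 0.37). The vesicular acetylcholine transporter Slc18a3 fell (-2.50, adjusted p = 0.012), but it is measured by 1 probeset, and its level was -1.03 and -3.36 on the Day 10 arrays, against 0.47 and 0.14 on the Day 0 arrays. Without Day 10 replicate 2 its change was -1.34, and without Day 0 replicate 1 the adjusted p was 0.057. Nfasc, an adhesion protein of the axon, fell by 1.02 (adjusted p = 0.017). The medians of both lists on Day 7 were 1.49 and 1.5. No member was higher on Day 10 than on Day 7 by the test, and 4 cytoskeletal and 2 synaptic members were lower.

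Of 29 tested neurogenic transcription factors 10 rose and 1 fell (median 0.72). The POU factor Pou3f2 (Brn2) had 1.45 and 1.51 on the Day 10 arrays, against -1.88 and -1.75 on the Day 0 arrays (9.79-fold, adjusted p = 2.4e-05). Nhlh1, a bHLH factor of young neurons, rose 8.23-fold (adjusted p = 0.00016) and Ebf3 rose 6.50-fold (adjusted p = 0.0001). Pou3f4, which is measured by 1 probeset, rose as well (change 2.69, and 1.68 without Day 10 replicate 2). Its Day 10 arrays were far apart at -0.54 and 1.49, against -2.59 and -1.85 on the Day 0 arrays. Their relative Pou3f1 (Oct6) fell, with -0.39 and -0.91 on the Day 10 arrays, against 1.26 and 0.92 on the Day 0 arrays (change -1.74, adjusted p = 0.0024). The proneural genes Neurog1 and Neurog2 did not pass (0.35 and 0.22).

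Among markers of neural progenitors and radial glia 7 of 20 rose and 1 fell (median 0.53). Besides Tnc, they included Fabp7, the brain fatty acid-binding protein of radial glia, with 1.45 and 2.76 on the Day 10 arrays, against -2.15 and -1.78 on the Day 0 arrays (16.7-fold, adjusted p = 0.00011). Pax3, a factor of the dorsal neural tube and neural crest, had 1.72 and 2.20 on the Day 10 arrays, against -1.48 and -1.44 on the Day 0 arrays (10.7-fold, adjusted p = 2.8e-05). Both genes were below the level of the filter on Day 0. The zinc finger factor Zic1 rose 3.03-fold (adjusted p = 0.0035). The SoxB1 factor Sox3 fell (change -1.46, adjusted p = 0.0047), nestin (Nes) did not pass (0.64, adjusted p = 0.14), and Pax6 overlapped between the days (0.08, adjusted p = 0.88).

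The label early glial was checked against markers of glia. Gfap had 2.35 and 2.92 on the Day 10 arrays, against -1.61 and -1.43 on the Day 0 arrays (17.9-fold, adjusted p = 2.8e-05). It was still at -1.47 and -0.71 on Day 7, and rose after Day 7 by 3.73 (adjusted p = 0.00093). This further rise was the largest among the ranked genes that rose from Day 0 to Day 10. Of 24 tested astrocyte genes 11 rose and 2 fell (median 0.58). Mlc1, a membrane protein of astrocyte endfeet, had 1.76 and 2.24 on the Day 10 arrays, against -2.10 and -2.34 on the Day 0 arrays (18.6-fold, adjusted p = 1.1e-05). It had already risen on Day 7 (0.88 and 1.21, change 3.26), and Day 10 was not called against Day 7 (0.95, adjusted p = 0.11). The nuclear factor I genes, which drive the switch of progenitors to glia, rose together, with changes of 4.46 for Nfix, 4.02 for Nfia and 3.71 for Nfib. Nfix had 3.17 and 3.44 on the Day 10 arrays, against -0.95 and -1.37 on the Day 0 arrays (22.1-fold, adjusted p = 1.1e-05). On Day 7 it was at 2.14 and 2.69 (change 3.58 from Day 0, also called), and its further change to Day 10 did not pass (0.89, adjusted p = 0.14). In the whole list 7 genes were higher and 5 lower on Day 7 than on Day 0 (median 0.05), and 5 were higher on Day 10 than on Day 7. Aldoc, an aldolase of astrocytes, had 4.67 and 4.42 on the Day 10 arrays, against 2.61 and 1.67 on the Day 0 arrays (5.29-fold, adjusted p = 0.0012), with 2.29 and 1.66 on Day 7.

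Other astrocyte markers went against the label or did not bear on it. Gja1 (connexin 43), which undifferentiated cells also express, had 4.04 and 4.12 on the Day 10 arrays, against 5.58 and 5.30 on the Day 0 arrays (change -1.36, adjusted p = 0.0042). Glutamine synthetase (Glul) fell as well (-1.22, adjusted p = 0.0053). Aldh1l1, a folate enzyme of astrocytes, had 1.34 and 2.91 on the Day 10 arrays, against 2.66 and 2.73 on the Day 0 arrays, which overlapped (change -0.57, adjusted p = 0.39). The water channel Aqp4 and S100b were below the filter, with levels between -1.82 and -0.88 on the Day 10 arrays and between -2.01 and -1.21 on the Day 0 arrays. Of the 6 fixed astrocyte markers 2 rose, 1 fell, 1 did not pass and 2 were not tested. Of 11 tested genes of the oligodendrocyte lineage only Pdgfra rose (1.24, adjusted p = 0.0078), which mesenchymal cells also express, and Olig1, Olig2, Sox10 and Mbp overlapped between the days (changes between -0.24 and 0.36).

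Mesenchymal genes rose as well. Of 46 tested genes of the extracellular matrix 27 rose and 1 fell (median 1.30), and all 7 fixed markers of fibroblasts and mesenchyme rose. On Day 7, 23 of these matrix genes were already higher than on Day 0 (median 1.15), and so were 9 mesenchymal factors and receptors. On Day 10 against Day 7, 4 matrix genes were higher and none lower. The fibrillar collagen Col3a1 had 3.08 and 3.47 on the Day 10 arrays, against -1.11 and -1.38 on the Day 0 arrays (23-fold, adjusted p = 8.3e-06). Col1a1 had 3.21 and 4.00 on the Day 10 arrays, against -0.47 and -1.19 on the Day 0 arrays (21.6-fold, adjusted p = 0.0002), and its partner chain Col1a2 rose 17.4-fold (adjusted p = 3.1e-05). Day 10 levels were thus far above the median gene, while on Day 0 no collagen of the 3 exceeded 0.19. Prrx1 had 2.92 and 2.94 on the Day 10 arrays, against -2.32 and -1.60 on the Day 0 arrays (29.6-fold, adjusted p = 8.3e-06). Of 19 mesenchymal factors and receptors 9 rose and none fell, among them Pdgfrb, the receptor of pericytes and fibroblasts (7.72-fold, adjusted p = 0.0001), Snai2 (6.25-fold, adjusted p = 0.00025) and Twist1 (5.10-fold, adjusted p = 0.00071), which are factors of epithelial-mesenchymal transition. The adhesion protein Cdh11 rose 11.3-fold (adjusted p = 0.00012). The basement membrane genes Col4a1, Col4a2 and Lamc1 did not pass (-0.30, 0.02 and -0.15), and Nid2 fell (-1.16, adjusted p = 0.019).

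Smooth muscle genes were split. Of 13 tested, 4 rose and none fell (median 0.12). On Day 7, 6 members were higher than on Day 0 (median 0.70), and the median change from Day 7 to Day 10 was -0.76. In the 4 genes that rose, the changes from Day 7 to Day 10 were between -1.26 and -0.72, none of them called. Acta2, the smooth muscle actin, had 4.97 and 5.06 on the Day 10 arrays, against 2.79 and 2.99 on the Day 0 arrays (4.36-fold, adjusted p = 0.00029). Tagln, an actin-binding protein, had 3.71 and 3.93 on the Day 10 arrays, against 1.42 and 1.20 on the Day 0 arrays (5.70-fold, adjusted p = 0.00011). The actin Actg2 (5.68-fold, adjusted p = 0.0008) and the myosin light chain Myl9 (3.00-fold, adjusted p = 0.0047) also rose, whereas calponin (Cnn1) had a change of -0.68 (adjusted p = 0.16) and Myh11, which marks mature smooth muscle, was below the filter. Srf, the factor that binds the CArG box of many such genes, had 1.17 and 1.23 on the Day 10 arrays, against 1.91 and 2.20 on the Day 0 arrays (change -0.85, adjusted p = 0.027), a change of under 2-fold. The CArG box, searched on both strands, occurs in 1.63% of the 32851 promoters and in 4 of the 16 genes of this list that have one, of which Myl9 rose and Cnn2, Srf and Vcl did not. That of Myl9 (chr2:156775293-156775322, plus strand), with the box in capitals, is shown with the nearer of the pair of boxes in Srf (chr17:46556205-46556234, minus strand), as the member that rose and the gene of the factor itself.
Myl9: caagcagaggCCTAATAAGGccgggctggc
Srf: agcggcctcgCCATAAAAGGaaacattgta

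The lists of skeletal and cardiac muscle, blood, endoderm and endothelium held few tested genes, such as 4 of 17 measured blood genes and 8 of 20 endothelial genes. Over all tested genes 17.5% were called in either direction. With so few tested members, a low count does not set these lists apart from that share. With limma none of the 8 tested genes of skeletal muscle and none of the 4 of blood passed in either direction, nor did any of them reach an unadjusted p under 0.05. Of 13 cardiac genes only Gata6 and Tbx5 rose (1.15 and 1.08), and of 9 endoderm genes only Gata6. Tbx5 lost its call with median polish of the probesets (0.57, adjusted p = 0.12), with their mean (0.72) and with an offset of 50 (0.69). Gata6 did not pass without Day 10 replicate 2 (0.98) or without Day 0 replicate 2 (0.98). Of 8 endothelial genes Kdr, the VEGF receptor, rose (5.13-fold, adjusted p = 0.0003), and Egfl7 fell (-1.07, adjusted p = 0.04). Egfl7 no longer passed when Day 10 replicate 2 (-0.63), Day 0 replicate 1 (-0.78) or either Day 7 array (adjusted p = 0.07) was left out. Pecam1 and Cdh5, which define endothelium, were below the filter at levels between -1.94 and -0.93 on the Day 10 arrays and between -1.48 and -1.08 on the Day 0 arrays. In the neural crest list 3 of 11 rose (Tfap2b, Ednrb and Mitf) and 2 fell (Erbb3 and Phox2a). Tfap2b had 2.82 and 2.33 on the Day 10 arrays, against -2.34 and -2.20 on the Day 0 arrays (28.8-fold, adjusted p = 1e-05), and the receptor Erbb3 fell (-1.51, adjusted p = 0.0035). Mitf, a factor of pigment cells, rose by 1.31 (adjusted p = 0.0099), and by 1.0 without Day 0 replicate 1 (adjusted p = 0.06).

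**Figure D4:**
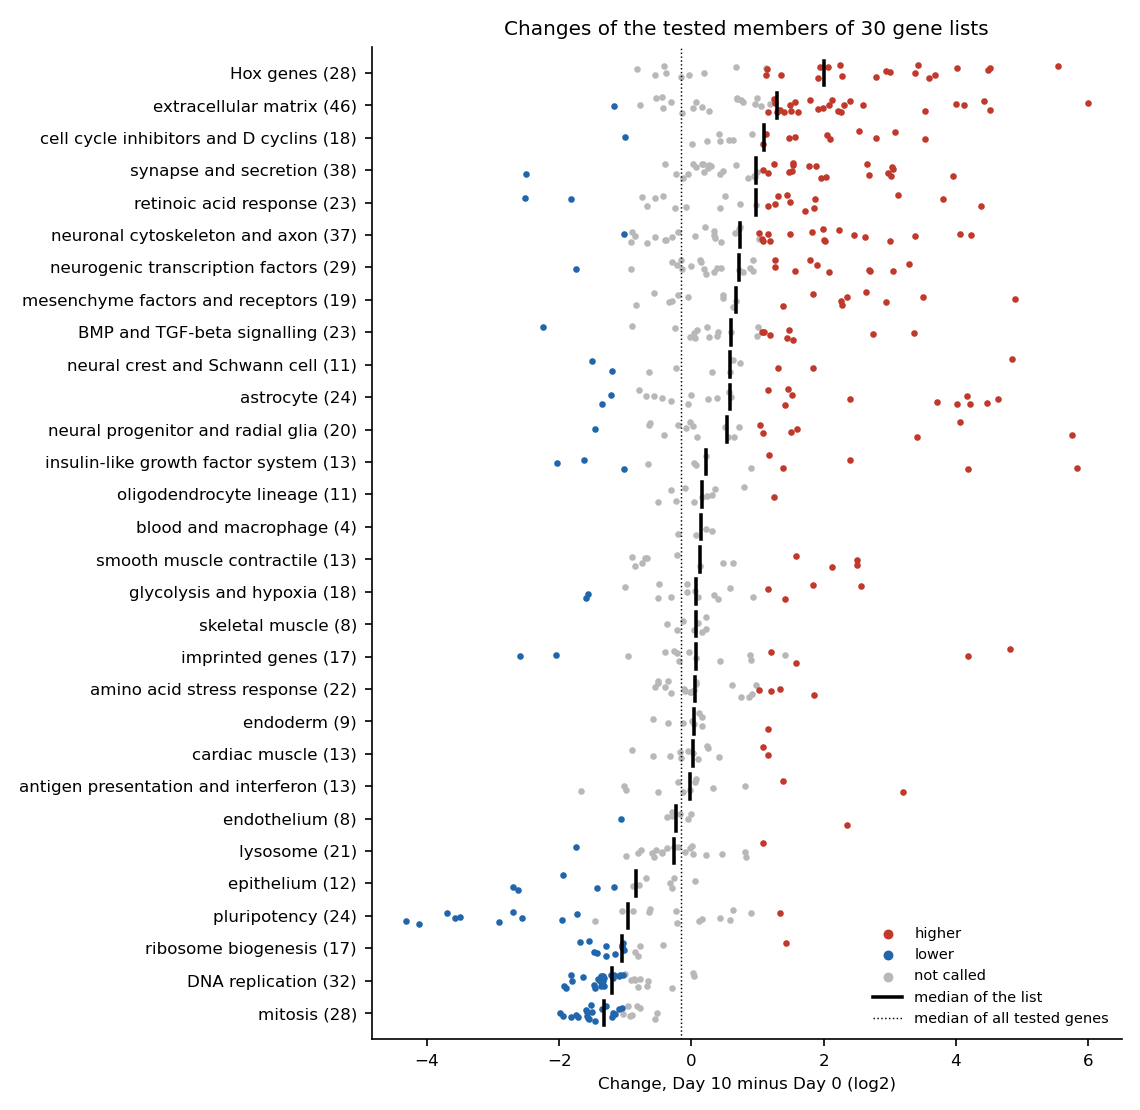
Change from Day 0 to Day 10 (horizontal axis, log2) of each tested member of 30 gene lists, with the number tested after each name. Red points rose, blue points fell and grey points did not pass, the black bar is the median of the list, and the dotted line is the median of all tested genes (-0.16). Hox genes have the highest median (2.0) and mitosis genes the lowest (-1.33), and pluripotency genes reach the lowest single values.

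Where a list had no called gene in a direction, the count at an unadjusted p under 0.05 was between 0 and 4. It was 1 each for lower Hox, mesenchymal and cardiac genes, 3 for lower genes of antigen presentation and interferon, 4 for lower smooth muscle genes, and 0 for lower oligodendrocyte and endoderm genes, for higher epithelial, replication and mitosis genes and for lower genes of the amino acid stress response.

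Many genes of cell division fell. Of 32 tested genes of DNA replication 21 fell and none rose (median -1.20), and of 28 genes of mitosis 20 fell and none rose (median -1.33). Pole, the catalytic subunit of a replicative polymerase, had -0.03 and 0.43 on the Day 10 arrays, against 2.16 and 2.10 on the Day 0 arrays (change -1.92, adjusted p = 0.00071). Cdc6, which loads the replicative helicase, had 0.28 and 0.86 on the Day 10 arrays, against 2.83 and 2.12 on the Day 0 arrays (change -1.90, adjusted p = 0.0024). The checkpoint kinase Bub1 had 0.66 and 1.24 on the Day 10 arrays, against 2.73 and 3.13 on the Day 0 arrays (change -1.98, adjusted p = 0.0017). In each of these genes Day 10 replicate 1 was the lowest array, and replicate 2, with its higher signal of undifferentiated markers, lay above it. The part of that signal in the counts was not tested. Mcm10, Bub1b, Ttk and Kif11 fell by between 1.75 and 1.94 on the log2 scale. The helicase subunits Mcm2 to Mcm7 all fell, by between 1.19 and 1.64 on the log2 scale, and the proliferation marker Mki67 fell by 1.72 (adjusted p = 0.0055), with -0.69 and -0.10 on the Day 10 arrays, against 0.86 and 1.78 on the Day 0 arrays. E2f1 and Ccne2 did not follow (0.04 and 0.03).

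By the medians of the 2 lists, these genes had changed little on Day 7. Single members had already moved from Day 0, such as Pole (-0.87), Mcm10 (-0.98), Bub1 (-0.64) and Bub1b (-0.69), none of them called on Day 7. Others, such as Cdc6 (-0.15) and Gins1 (0.14), had moved little. On that day the median change of the replication genes from Day 0 was -0.15, with 1 higher and 1 lower, and that of the mitosis genes was -0.33. Directly between Day 10 and Day 7 the medians were -0.84 and -1.06, and 4 replication genes and 2 mitosis genes were called lower. When Day 10 replicate 1 was left out, 13 replication and 16 mitosis genes fell. The counts were 13 and 15 when Day 0 replicate 2 was left out, and 24 and 25 when Day 10 replicate 2 was. With quantile normalization both counts were 15. Gins1, a subunit of the helicase complex, fell by 1.83 (adjusted p = 0.014), but not without Day 10 replicate 1 (-1.09, adjusted p = 0.066) nor without Day 0 replicate 2 (-1.45, adjusted p = 0.093).

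Inhibitors of the cell cycle were raised on Day 10, and their median was already raised on Day 7. Of 18 tested inhibitors, Rb family members and D cyclins 10 rose and 1 fell (median 1.10, with 1.23 on Day 7). The inhibitor Cdkn2c (p18) had 0.68 and 0.73 on the Day 10 arrays, against -3.20 and -2.45 on the Day 0 arrays (11.6-fold, adjusted p = 3.7e-05). On Day 0 replicate 1 Cdkn2c lay close to the level of zero intensity (-3.27), so the offset bears on the size of its change. Cdkn1a (p21) had 1.64 and 2.01 on the Day 10 arrays, against -1.09 and -0.32 on the Day 0 arrays (5.78-fold, adjusted p = 0.00038). The growth arrest genes Gadd45g and Gadd45a rose 8.42-fold (adjusted p = 7.5e-05) and 6.93-fold (adjusted p = 0.00032). Of the pocket proteins, Rbl2 (p130) rose (change 2.09) and Rbl1 (p107) fell (-1.0, adjusted p = 0.02). Cyclin D2 (Ccnd2) rose (1.57), and Ccnd1 did not pass (0.56, adjusted p = 0.17).

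Genes of ribosome biogenesis were lower, with 12 of 17 fallen and 1 risen (median -1.04). The nucleolar protein Nop58 had 1.51 and 2.04 on the Day 10 arrays, against 3.21 and 3.71 on the Day 0 arrays (change -1.69, adjusted p = 0.0029). Nolc1 had 2.33 and 2.53 on the Day 10 arrays, against 4.40 and 3.56 on the Day 0 arrays (change -1.55, adjusted p = 0.0054). The gene that rose was Myc, a factor that induces the others in dividing cells, with 2.95 and 3.10 on the Day 10 arrays, against 1.75 and 1.43 on the Day 0 arrays (2.70-fold, adjusted p = 0.0029). The days did not overlap in these 3 genes, and the nucleolar protein Gnl3 fell by 1.47 (adjusted p = 0.0052). The count of 12 was 6 without Day 10 replicate 1, 7 without Day 0 replicate 2, 6 with quantile normalization and 6 without centring of the arrays.

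Growth factor genes changed on both sides. Igf2, a fetal growth factor expressed from the paternal allele, had 5.70 and 5.34 on the Day 10 arrays, against 1.03 and 1.63 on the Day 0 arrays (18.2-fold, adjusted p = 1.4e-05). Its binding proteins Igfbp3, Igfbp4, Igfbp5 and Igfbp7 rose (changes of 1.17, 2.39, 5.83 and 1.38), whereas the 3 RNA-binding proteins that bind its mRNA, Igf2bp1, Igf2bp2 and Igf2bp3, fell (-2.04, -1.03 and -1.63). Igf2bp1 had 2.54 and 2.92 on the Day 10 arrays, against 4.73 and 4.80 on the Day 0 arrays (adjusted p = 0.00051). In the list of 17 tested imprinted genes 4 rose and 2 fell (median 0.07). Besides Igf2 and H19, Dlk1 and Ndn rose (1.58 and 1.21), and Magel2, a neighbour of Ndn, fell, with 0.17 and 0.49 on the Day 10 arrays, against 2.99 and 2.85 on the Day 0 arrays (change -2.59, adjusted p = 0.00014). Without Day 0 replicate 1, 2 of the 17 rose. Phlda2 fell by 2.05 on the log2 scale (adjusted p = 0.00038).

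Of 23 genes of BMP and TGF-beta signalling 8 rose and 1 fell (median 0.60). The activin subunit Inhba had 1.15 and 1.01 on the Day 10 arrays, against -2.42 and -2.16 on the Day 0 arrays (10.4-fold, adjusted p = 1.9e-05). Noggin (Nog), which binds BMPs, had -0.54 and 0.51 on the Day 10 arrays, against -2.12 and -3.40 on the Day 0 arrays (6.69-fold, adjusted p = 0.002). Nog is measured by 1 probeset. On Day 0 replicate 2 it lay close to the level of zero intensity (-3.42), so the offset bears on the size of its change. The secreted protein Tgfbi rose 2.89-fold (adjusted p = 0.0022). Follistatin (Fst), which binds activin, fell, with 0.32 and 0.63 on the Day 10 arrays, against 2.0 and 3.45 on the Day 0 arrays (change -2.25, adjusted p = 0.0037). Activin and its antagonist moved in opposite directions.

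A small group of genes was higher on Day 10 than on both earlier days. P2rx3 had 3.38 and 3.19 on the Day 10 arrays, against -1.17 and -1.46 on the Day 0 arrays (24.3-fold, adjusted p = 6.7e-06), and was at 0.08 and -0.04 on Day 7. Sparcl1 had 3.26 and 2.70 on the Day 10 arrays, against -2.08 and -1.23 on the Day 0 arrays (24.9-fold, adjusted p = 2.8e-05), and was at 0.74 and 0.11 on Day 7. Both rose further from Day 7 to Day 10, by 3.27 (adjusted p = 0.00078) and 2.56 (adjusted p = 0.011). Slc7a11, a subunit of the cystine and glutamate exchanger, had a dip between, with 0.86 and 0.59 on Day 0, -0.36 and -0.54 on Day 7 and 2.86 and 2.30 on Day 10. Its change from Day 0 to Day 10 was 1.85 (3.62-fold, adjusted p = 0.0013). Acot2, a mitochondrial thioesterase, had the same course (3.07-fold on Day 10 over Day 0, adjusted p = 0.0022), with 1.09 and 0.74 on Day 0, -0.24 and -0.14 on Day 7 and 2.33 and 2.74 on Day 10. B4galnt2, a glycosyltransferase, rose by 1.21 (adjusted p = 0.045), but not without Day 10 replicate 1 (1.25, adjusted p = 0.10), Day 10 replicate 2 (1.17, adjusted p = 0.088) or Day 0 replicate 2 (0.75, adjusted p = 0.26).

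The falls with the largest further move after Day 7 were Rapgef5, Gins1, Mki67, Cdc6 and Melk. Rapgef5, an exchange factor of Rap proteins, had -0.74 and -0.79 on the Day 10 arrays, against 1.53 and 1.87 on the Day 0 arrays (change -2.46, adjusted p = 0.00017). It was at 1.39 and 1.03 on Day 7, and fell by a further 1.97 to Day 10 (adjusted p = 0.0082). The kinase Melk, which is expressed in dividing cells, had -0.33 and 0.19 on the Day 10 arrays, against 1.28 and 1.68 on the Day 0 arrays (change -1.55, adjusted p = 0.0047), with 1.84 and 1.37 on Day 7.

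Of 22 tested genes of the amino acid stress response, to which Slc7a11 belongs, 4 rose and none fell (median 0.05). Ddit4, Ddit3 and Atf3 rose by between 1.03 and 1.33, and the count was 7 with quantile normalization and 7 without Day 0 replicate 1. Atf3 (adjusted p = 0.026) no longer passed when Day 10 replicate 2 (0.80), Day 0 replicate 2 (0.74) or either Day 7 array (adjusted p = 0.053) was left out. The enzymes of serine and asparagine synthesis Phgdh, Psat1 and Asns did not pass (-0.36, -0.31 and -0.51). In the list of antigen presentation and interferon genes 2 of 13 rose. Ifitm3, a membrane protein against viral entry, had 1.5 and 1.27 on the Day 10 arrays, against -1.75 and -1.86 on the Day 0 arrays (9.15-fold, adjusted p = 4e-05), with -0.83 and -0.31 on Day 7. B2m, the light chain of class I molecules, had 3.92 and 3.72 on the Day 10 arrays, against 2.37 and 2.50 on the Day 0 arrays (2.61-fold, adjusted p = 0.0037), with 2.35 and 2.70 on Day 7. The class I heavy chain H2-K1 did not follow (-1.01, adjusted p = 0.083).

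Genes of glycolysis and hypoxia gave 4 rises and 2 falls among 18 (median 0.07). Ndrg1, which is induced by low oxygen, had 2.74 and 2.63 on the Day 10 arrays, against 0.10 and 0.15 on the Day 0 arrays (5.91-fold, adjusted p = 0.00037), and Vegfa rose 2.66-fold (adjusted p = 0.003). The glucose transporter Slc2a3 had 4.28 and 4.51 on the Day 10 arrays, against 5.99 and 5.92 on the Day 0 arrays (change -1.56, adjusted p = 0.0016), and hexokinase 2 (Hk2) fell by 1.6 (adjusted p = 0.0022). The glycolytic enzymes Gapdh, Pgk1, Aldoa and Pkm did not pass, with changes between -0.51 and 0.10. The collagen prolyl hydroxylase P4ha1 (1.84) and the oxygen sensor Egln3 (1.15) were the other rises. In the lysosomal list 1 of 21 rose and 1 fell (median -0.27). The membrane protein Lamp2 rose by 1.08 (adjusted p = 0.013), and by 0.97 without Day 0 replicate 1 (adjusted p = 0.063). The sialidase Neu1 had 0.87 and 1.45 on the Day 10 arrays, against 2.75 and 3.04 on the Day 0 arrays (change -1.74, adjusted p = 0.0018).

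**Figure D5:**
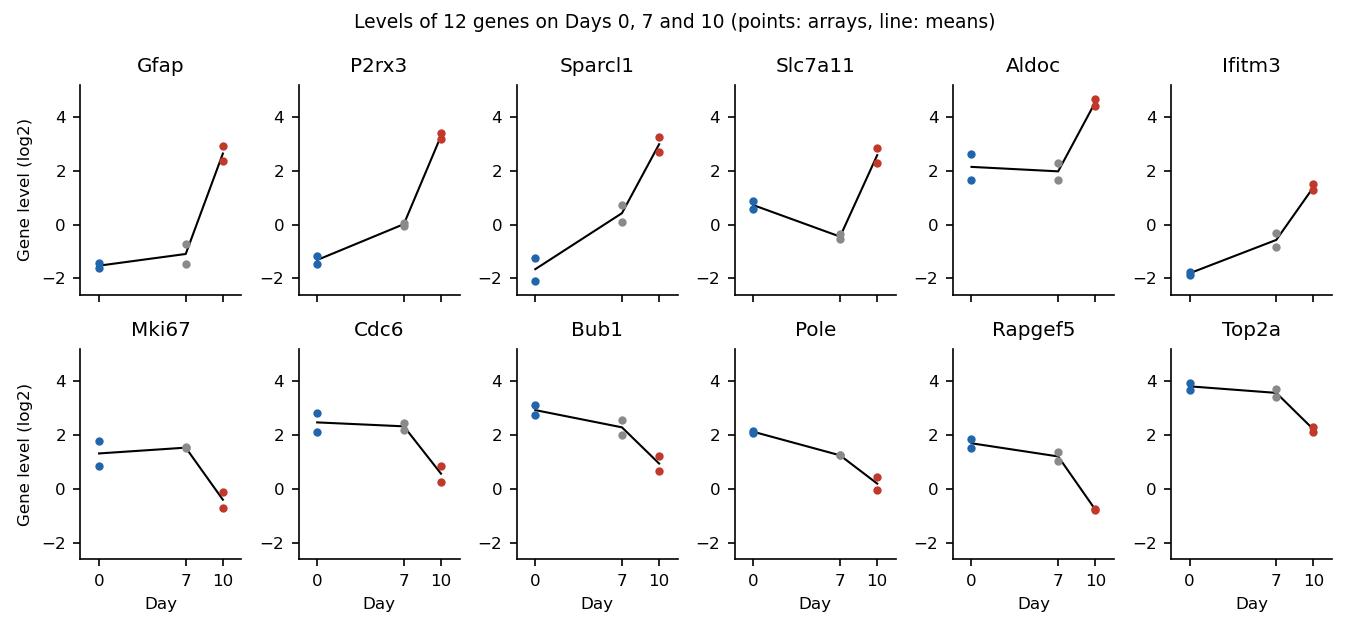
Gene level (vertical axis, log2, 0 is the median gene) on Days 0, 7 and 10 (horizontal axis) for 6 genes that rose and 6 that fell, with a point for each array and a line through the means of 2. Gfap and Aldoc are about level between Day 0 and Day 7 and then rise, Slc7a11 dips on Day 7, and the division genes Mki67, Cdc6 and Top2a fall after Day 7. The means of the division genes Pole and Bub1 fall both before and after Day 7.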

How the data were processed

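RNA of P19 cells was hybridized to Affymetrix Mouse Exon 1.0 ST arrays, 2 per day. The deposited table holds a linear intensity for each of 228090 probesets. The paper describes sketch normalization and PLIER in Affymetrix Expression Console, for a different number of core probesets. The submitters' processing notes name RMA, with no version given. Which of these made the deposited values is not known. Genome build and array background are not given in the sources used here, and no scan dates or slides were used. The number of arrays limits the precision, and p-values measure only the spread between these duplicates.

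The annotation gives 1 symbol to 208093 probesets, which were used, several to 4327 and none to 15670. Of 16285 symbols 14111 are current in RefSeq (GRCm38.p6, used for names and promoters), 2131 were updated and 43 kept, giving 16263 genes. log2(intensity + 16) was summarized by the median per gene and centred on the median of each array. The offset understates changes of dim genes. Genes with a mean at or above the 30th percentile were fitted over all 6 arrays with limma 3.58.1 in R 4.3.3 (eBayes, Benjamini-Hochberg over 11384 genes), and the fit was tested on simulated data. Overlapping and near-identical genes can share probes.

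Genes were named by rule: the 15 largest rises and 15 largest falls with at least 3 probesets, up to 4 called members of each of 30 lists with the largest change, the 5 rises and 5 falls with the largest further move after Day 7, and fixed cell type markers. Not every gene that the rule picks is described, and other list members named in the text were chosen after their values were seen. The comparison, lists and rule were chosen with earlier results of these data known. Genes picked for a large called change are bound to show a gap between the days, so such a gap is no separate support. List members without a value are not analysed here. Alternatives covered the summary, offset, centring, quantile normalization, filter, thresholds, arrays fitted, replicate block and each array left out. With 1 array of a day left out, the fit takes the spread of the lone array from the other days.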

Additional observations from a re-analysis of the deposited data

How the results depend on the processing

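The counts of 827 higher and 1163 lower genes kept within 1.5 times under all alternatives but 3 for the lower genes, which were 720 with quantile normalization, 620 at an adjusted p under 0.01, and 748 without Day 10 replicate 1. With arrays left out in turn the higher genes ranged from 783 to 913 and the lower from 748 to 1710. The duplicates share only a number between days, and the deviations of same-numbered arrays from their day's mean correlated at 0.33 between Day 10 and Day 0, -0.03 between Day 10 and Day 7 and -0.08 between Day 7 and Day 0. With the replicate block 853 genes were higher and 1195 lower. Among 228 tested genes, which are those picked by the rule and those named in the text, no called gene changed sign under these alternatives. Calls were lost in 18 of them with median polish, 16 with the mean of the probesets and 16 with an offset of 50. They were lost in 8 with quantile normalization, among them Mcm6 (-0.95), and in 22 at an adjusted p under 0.01. With median polish the changes of the lost calls included 0.50 for Hoxa4, 0.45 for Hoxa7, -0.63 for Pou3f1, 0.84 for Dlk1, 0.67 for Igfbp7 and -0.85 for Glul. Other calls were lost beside those given with the results. Without Day 10 replicate 1 they were the neuronal marker Elavl3 (0.81), Hoxa3 (0.70), Mcm4 (-0.90), Nid2 (-0.88), Rbl1 (-0.76) and Spint2 (-0.99). Without Day 10 replicate 2 they were Dlk1 (1.20), Egln3 (0.89), Igf2bp2 (-0.99), Nfasc (-0.87) and Phox2a (-0.98). Without Day 0 replicate 1 they were Dlk1, Egln3, Elavl3, Hoxa3, Mycn, Ndn, Nfasc and Rbl1. Without Day 0 replicate 2 they were Dlk1, Elavl3, Hoxa3, Igf2bp2, Igfbp3, Mcm4, Nfasc and Nid2. All of them kept the same direction. Without Day 10 replicate 1 Mycn was -1.24. Signs turned in genes that were not called. With median polish Stmn2 was -0.15, Cd68 -0.12, Aldoa -0.010, E2f1 -0.10, Neurog1 -0.013, Phgdh 0.088 and Sox2 0.20, and with the mean of the probesets Stmn2 was -0.12, Cd68 -0.079, Mbp 0.0091, Nkx2-5 0.23, Col4a2 -0.0089, E2f1 -0.12 and Phgdh 0.0061. With an offset of 50 Ccne2 was -0.015, and with quantile normalization Lamc1 was 0.096 and Pgk1 0.039. With each array left out in turn, the changes ranged from -0.28 to 1.14 for Tdgf1, -0.30 to 0.47 for Pax6, -1.35 to 0.21 for Aldh1l1, -0.0057 to 0.73 for Olig1, -0.46 to 0.54 for Olig2, -0.63 to 0.16 for Sox10, -0.76 to 0.57 for Mbp, -0.47 to 0.13 for Nkx2-5, -0.59 to 0.16 for Myod1, -0.16 to 0.60 for Myog -0.47 to 0.21 for Hnf4a, -0.14 to 0.34 for Aldoa, -0.0019 to 0.091 for E2f1, -0.38 to 1.07 for Neurog1, -0.017 to 0.45 for Neurog2, -0.81 to 0.088 for Phgdh, -0.61 to 0.13 for Sox2, -0.21 to 0.25 for Col4a2, -0.55 to 0.60 for Ccne2, -0.33 to 0.033 for Lamc1, -0.19 to 0.069 for Pgk1, -1.88 to 0.40 for Cyp26a1 and -1.38 to 0.022 for Krt18. The list counts were recomputed after the values were seen. Of the counts of 4 or more, those that moved by over 1.5 times, beside the ones given with the results, were at the 50th percentile filter 5 higher synaptic genes (18 otherwise), 4 higher neurogenic factors (10) and 3 lower epithelial genes (5), and with median polish 3 lower epithelial genes. At an adjusted p under 0.01 they were 7 higher RA response genes (11), 5 higher BMP and TGF-beta genes (8), 2 lower epithelial genes (5), 11 lower replication genes (21) and 6 lower ribosome biogenesis genes (12). Counts under 4 stayed between 0 and 3, and some of them came to 0, such as the 2 higher cardiac genes at an adjusted p under 0.01 and the 2 lower neural crest genes at the 50th percentile filter. The causes of these moves were not tested, apart from fewer genes tested or a stricter threshold.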
